A study of Mus musculus with 9 samples.

Results

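The genes described here are a set of 10 from the NF-kB pathway and the Toll-like receptors that feed into it, chosen by name: the receptors *Tlr2* and *Tlr4*, the adaptor *Myd88*, the NF-kB subunit genes *Nfkb1*, *Nfkb2*, *Rela* and *Relb*, the inhibitors *Nfkbia* and *Tnfaip3*, and the target gene *Icam1*. Of these, 8 were matched by symbol among the 15146 gene names in the deposited tables, and all 8 passed the filter on low values. *Relb* and *Tnfaip3* were not analysed here. The RNA came from neonatal rat ventricular cardiomyocytes (NRVMs), a primary culture prepared from the hearts of 1- to 2-day-old Sprague Dawley rats. After 48 h in culture, the cells of every group were infected with an adenovirus at a multiplicity of infection of 50 and were collected 48 h later. The virus carried LacZ (the control, a bacterial enzyme), mouse Nrf1 or mouse Nrf2 behind the CMV promoter, which is not restricted to cardiomyocytes, together with a red fluorescent protein, and there were 3 libraries per group. Since the LacZ cells were infected too, no group shows the level in cells without virus. Nrf1 and Nrf2 are here the related transcription factors encoded by *Nfe2l1* and *Nfe2l2*. The study reported that both activated antioxidant pathways in these cells, while only Nrf1 activated those of the proteasome. It also reported that genes of innate immunity and cytokine production fell with both factors, and it proposes an anti-inflammatory function that the factors share.

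Toll-like receptors recognise microbial molecules and molecules released by damaged cells. Most of them signal through the adaptor MyD88 and a chain of kinases to the IKK complex, which marks IkB proteins for destruction and so frees NF-kB dimers to enter the nucleus. NF-kB then raises chemokines, cytokines and adhesion molecules, and also its own inhibitors and some of its own subunits, so that the pathway limits itself. In the heart this pathway is active in cardiomyocytes as well as in macrophages, endothelial cells and fibroblasts, all of which can be present in NRVM cultures. The comparison of the LacZ, Nrf1 and Nrf2 libraries asks how the RNA of these genes changed when either factor was overexpressed, and whether the factors differed.

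The deposited values are group means that the authors computed for each pair of groups. The whole reads of the 3 libraries behind each mean were recovered from them, and the libraries of a group are called a, b and c from the deepest to the shallowest, because their replicate numbers cannot be told from the means. Summed reads ranged from 7874461 to 9347199 in LacZ, from 8533201 to 10275000 in Nrf1 and from 10149749 to 11905658 in Nrf2. Levels are given as reads per 1000000 summed reads (CPM) and are compared within a gene, not between genes. *Nfe2l2* averaged 371 CPM in LacZ and 7549 CPM in Nrf2, and the matching check for *Nfe2l1* was not analysed here. LacZ library b stood apart for leukocyte markers, whose 17 genes summed to 393 CPM there against 267 and 274 CPM in libraries a and c. Nothing in the labels says that the libraries of a group came from separate cultures, so the p-values measure the spread between these libraries, which may be technical.

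All 8 genes were lower than LacZ in both the Nrf1 and the Nrf2 libraries, with no library of either factor reaching the lowest LacZ library for any of them. *Icam1* fell the most in each comparison, to 32.0% of the LacZ mean with Nrf1 and to 31.0% with Nrf2. *Tlr4*, *Tlr2* and *Nfkbia* were lower with Nrf1 than with Nrf2, and the other 5 did not differ between the factors by the test. A gene is named as called when its adjusted p was under 0.05 (limma, Benjamini-Hochberg over all genes tested) and the authors' means differed by more than 1.5-fold, the cutoffs the study used. With Nrf1, 5 of the 8 genes were called lower, against 16.1% of the 13307 genes tested, and 0 were called higher, against 10.3%. By the adjusted p alone 8 of 8 were lower, against 29% of all genes, and 0 higher, against 29.7%. With Nrf2, 3 of 8 were called lower, against 8.83% of 13530 genes, and 0 higher, against 9.06%. By the adjusted p alone 8 of 8 were lower with Nrf2, against 22.5%, and 0 higher, against 25.4%. Libraries that lay wholly below LacZ, as these 8 genes showed, were found for 32.2% of all genes with Nrf1 and 27.2% with Nrf2, and libraries wholly above LacZ, which 0 of the 8 showed, for 31.9% and 29.1%. The median log2 difference of the 8 genes was -0.92 with Nrf1 and -0.43 with Nrf2, while that of all genes tested was -0.02 and -0.0035. LacZ library b was the highest LacZ library for 6 of the 8 genes, the exceptions being *Tlr4* and *Myd88*, and without it the calls were again 5 lower with Nrf1 and 3 lower with Nrf2. The comparisons with LacZ share their LacZ libraries, so that their counts are not independent of each other.

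**Figure D1:**
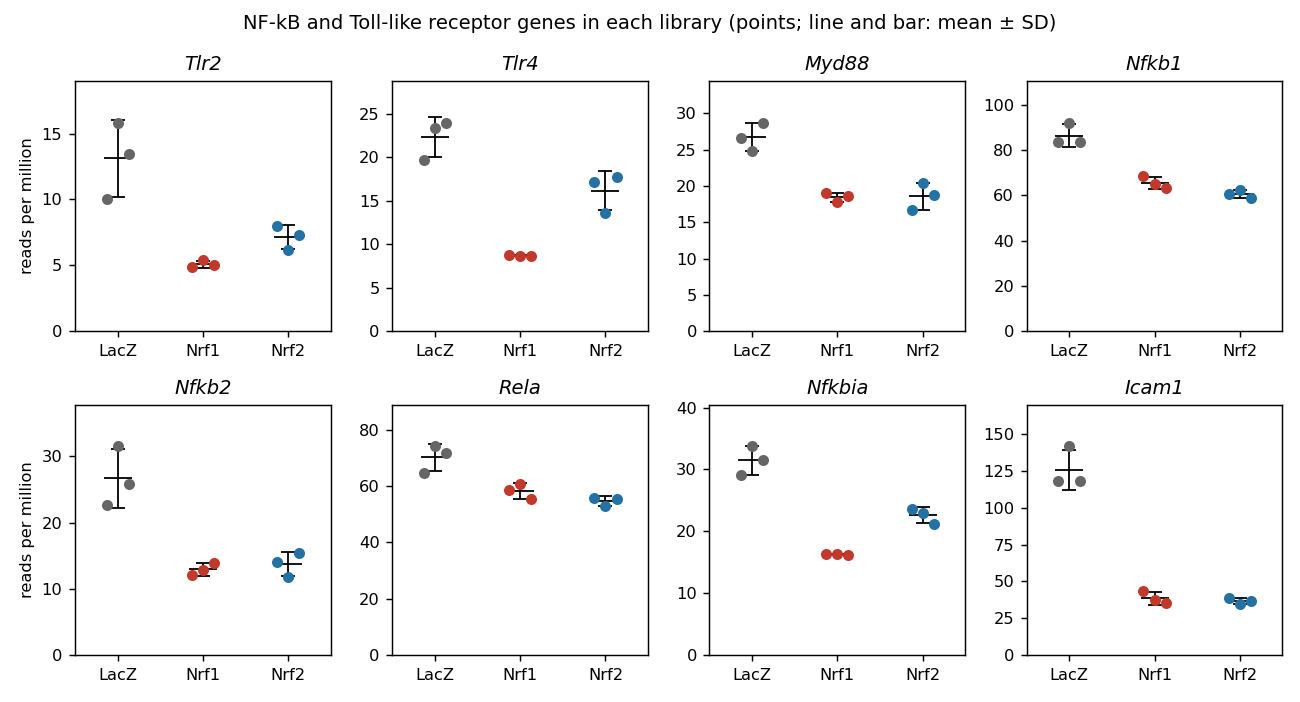
Level of each of the 8 genes in CPM (vertical axis, from 0, on a scale of its own for each gene) in the 3 LacZ, 3 Nrf1 and 3 Nrf2 libraries. Points are libraries a, b and c from left to right, and the line and bar are the mean ± SD. The Nrf1 and Nrf2 points lie below the LacZ points for each gene, and *Tlr4*, *Tlr2* and *Nfkbia* show Nrf2 points above the Nrf1 points.

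*Tlr4*, the receptor for bacterial lipopolysaccharide, was at 19.7, 23.4 and 24.0 CPM in LacZ libraries a, b and c. In the Nrf1 libraries it was at 8.76, 8.68 and 8.67 CPM, and in the Nrf2 libraries at 17.2, 13.6 and 17.7 CPM. The 3 groups did not overlap, with LacZ highest, Nrf2 between and Nrf1 lowest. The log2 difference from LacZ was -1.28 with Nrf1 (SE 0.109, limma adjusted p = 2.62e-08), a fall to 40.7% of the LacZ mean. With Nrf2 it was -0.38 (SE 0.113, limma adjusted p = 0.0117), which left 76.9% of the LacZ mean and was not called. *Tlr4* was the only gene of the set called in the direct comparison, where it was 0.89 higher on the log2 scale in Nrf2 than in Nrf1 (95% interval 0.65 to 1.14, limma adjusted p = 4.07e-06). In that comparison 11.4% of 13478 genes were called higher. In the test of Nrf2 against LacZ, the adjusted p was 0.0553 without LacZ library c and 0.0705 without Nrf2 library b.

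*Tlr2*, which pairs with *Tlr1* or *Tlr6* to bind bacterial lipoproteins, had the fewest reads of the set, from 43 to 130 per library. It was at 10.1, 15.8 and 13.5 CPM in LacZ, at 4.87, 5.39 and 5.04 CPM in Nrf1 and at 7.98, 6.19 and 7.29 CPM in Nrf2. LacZ library b, the one with the most leukocyte marker reads, was also the highest for *Tlr2*, and the 3 groups again did not overlap. The mean of 13.1 ± 2.90 CPM in LacZ (SD, n = 3) had a coefficient of variation of 22.1%, the widest of the set. The log2 difference was -1.26 with Nrf1 (SE 0.162, limma adjusted p = 3.69e-06) and -0.76 with Nrf2 (SE 0.161, limma adjusted p = 0.00108). Without LacZ library b these were -1.12 and -0.62, and both stayed called. Nrf2 exceeded Nrf1 by 0.49 (95% interval 0.17 to 0.80, limma adjusted p = 0.0109), a ratio under 1.5-fold, and without Nrf2 library a the adjusted p was 0.0638.

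*Myd88*, the adaptor that most Toll-like receptors and the interleukin-1 receptor share, was at 26.6, 24.8 and 28.7 CPM in LacZ. It was at 19.0, 17.8 and 18.6 CPM in Nrf1 and at 16.6, 20.3 and 18.8 CPM in Nrf2. The groups of the 2 factors overlapped each other and both lay below LacZ. The fall was of similar size in both comparisons, to 72.2% of the LacZ mean with Nrf1 (log2 difference -0.47, SE 0.0876, limma adjusted p = 0.000208) and to 73.9% with Nrf2 (-0.44, SE 0.0951, limma adjusted p = 0.0014). Neither reached 1.5-fold. The direct log2 difference was 0.02 with a 95% interval from -0.17 to 0.21, which leaves room for a difference of that size in either direction.

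Among the subunits, *Nfkb2* had the largest difference from LacZ. It encodes the precursor that is cut in the non-canonical branch of the pathway and is itself a target of NF-kB. Its level was 22.7, 31.5 and 25.9 CPM in LacZ, 12.1, 12.8 and 13.9 CPM in Nrf1 and 14.1, 11.8 and 15.4 CPM in Nrf2. The Nrf1 and Nrf2 libraries overlapped, and the LacZ libraries were above both, with library b highest. *Nfkb2* fell to 50.7% of the LacZ mean with Nrf1 (log2 difference -0.97, SE 0.113, limma adjusted p = 1.2e-06) and to 54.7% with Nrf2 (-0.86, SE 0.123, limma adjusted p = 3.37e-05), and it was called in both. Without LacZ library b the differences were -0.85 and -0.74, and the direct difference was 0.10 (95% interval -0.14 to 0.33).

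*Nfkb1* and *Rela* encode the subunits of the classical NF-kB dimer, and neither reached 1.5-fold. *Nfkb1* was at 83.7, 92.1 and 83.4 CPM in LacZ, 68.4, 65.0 and 63.4 CPM in Nrf1 and 60.8, 62.4 and 58.9 CPM in Nrf2. The LacZ libraries were clear of the rest, and each Nrf2 library was slightly below each Nrf1 library. The log2 differences from LacZ were -0.33 with Nrf1 (SE 0.0542, limma adjusted p = 4.94e-05) and -0.42 with Nrf2 (SE 0.0534, limma adjusted p = 1.06e-05). Between the factors *Nfkb1* differed by -0.10 (95% interval -0.20 to 0.0058, limma adjusted p = 0.108), which did not pass the test although the libraries did not overlap, as was so in the lower direction for 28.4% of all genes.

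*Rela*, which carries the part of the dimer that activates transcription, showed the smallest difference of the 8 from LacZ. Its level was 64.8, 74.1 and 71.6 CPM in LacZ, 58.7, 60.9 and 55.4 CPM in Nrf1 and 55.7, 52.8 and 55.6 CPM in Nrf2. LacZ lay above both factors, and the highest Nrf1 library was close to the lowest LacZ library. The log2 difference was -0.20 with Nrf1 (SE 0.0602, limma adjusted p = 0.0084) and -0.27 with Nrf2 (SE 0.0583, limma adjusted p = 0.00124). Without Nrf1 library c the adjusted p of the comparison with Nrf1 was 0.0510. Nrf2 and Nrf1 differed by -0.08 (95% interval -0.19 to 0.03).

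*Nfkbia* encodes IkB-alpha, the inhibitor that holds NF-kB dimers in the cytoplasm and is rapidly made again once NF-kB is active. It was at 29.1, 33.7 and 31.5 CPM in LacZ, at 16.4, 16.3 and 16.2 CPM in Nrf1 and at 23.6, 23.0 and 21.2 CPM in Nrf2. Its 3 groups were separate, in the order LacZ, Nrf2, Nrf1, and the coefficient of variation of the Nrf1 libraries was 0.548%. *Nfkbia* fell to 54.1% of the LacZ mean with Nrf1 (log2 difference -0.88, SE 0.0839, limma adjusted p = 1.02e-07) and was called. With Nrf2 it fell to 76.3% (-0.39, SE 0.0800, limma adjusted p = 0.000908), less than 1.5-fold. Nrf2 exceeded Nrf1 by 0.48 (95% interval 0.31 to 0.66, limma adjusted p = 7.02e-05), also less than 1.5-fold, and 3 of the 8 genes passed the adjusted p alone in this direction, against 25.9% of all genes.

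*Icam1*, an adhesion molecule by which leukocytes bind to endothelium and to cardiomyocytes, is a long-known target of NF-kB. Its level was 118, 142 and 118 CPM in LacZ, 43.4, 37.3 and 35.0 CPM in Nrf1 and 38.8, 34.9 and 36.5 CPM in Nrf2. Each LacZ library was far above the Nrf1 and Nrf2 libraries, which overlapped each other. The log2 difference was -1.64 with Nrf1 (SE 0.0775, limma adjusted p = 1.18e-11) and -1.69 with Nrf2 (SE 0.0683, limma adjusted p = 3.49e-11). Without LacZ library b, again the highest, these were -1.56 and -1.60. The factors differed from each other by -0.05 (95% interval -0.21 to 0.10, limma adjusted p = 0.594).

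**Figure D2:**
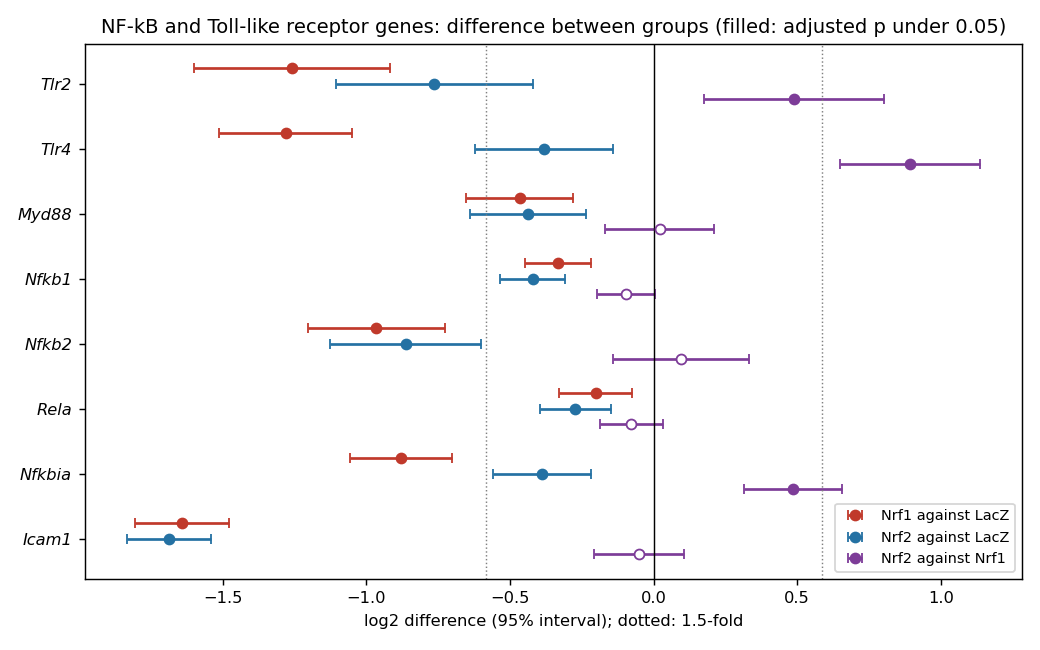
Log2 difference between groups (horizontal axis) with its 95% interval for each of the 8 genes, for Nrf1 against LacZ (red), Nrf2 against LacZ (blue) and Nrf2 against Nrf1 (purple). Filled points have an adjusted p under 0.05, and dotted lines mark 1.5-fold. Both comparisons with LacZ lie left of 0 for all 8 genes, from -0.20 for *Rela* to -1.69 for *Icam1*, and *Tlr4* is the purple point past the dotted line at 0.89.

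In the direct comparison the 8 genes thus fell into a group that differed and a group that did not pass the test. *Tlr4*, *Nfkbia* and *Tlr2* were higher in Nrf2 than in Nrf1, with libraries wholly above those of Nrf1, as for 29.4% of all genes. *Icam1*, *Myd88*, *Nfkb1*, *Nfkb2* and *Rela* had differences from -0.10 to 0.10, and the widest of their 95% intervals reached 0.33. The median over the 8 genes was 0.06, beside 0.02 over all genes tested.

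A further 88 genes of the pathway were listed by role, of which 81 are in the tables. With Nrf1, 75 of them could be tested, and 37 were called lower and 6 higher. That is 49.3% called lower, where 16.1% of all genes were, and their median log2 difference was -0.69. With Nrf2, 26 of 76 were called lower and 2 higher, which is 34.2% lower against 8.83% of all genes, with a median of -0.43. Between the factors 11 of 74 were higher in Nrf2 and 4 lower, against 11.4% and 4.28% of all genes, with a median of 0.07. The lists were drawn up with earlier results of these data known, so that these counts are descriptions.

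Among the other receptors, 8 of 17 tested were called lower and 2 higher with Nrf1, against 16.1% and 10.3% of all genes. The largest fall was that of *Tlr7*, an endosomal receptor for single-stranded RNA, from a range of 6.63 to 10.7 CPM in LacZ to 0.584 to 1.29 CPM in Nrf1 (log2 difference -2.95, limma adjusted p = 9.86e-08). In Nrf2 *Tlr7* was at 3.15 to 4.37 CPM, between the other groups (-0.999 against LacZ, limma adjusted p = 0.000737). The largest rise with Nrf1 was that of *Tlr5*, the flagellin receptor, from 9.31 to 10.1 CPM in LacZ to 17.1 to 21.9 CPM (1.00, limma adjusted p = 1.17e-06). *Tnfrsf1a*, a receptor for TNF, was the other receptor called higher, with a log2 difference of 0.59 that was barely past the 1.5-fold cutoff. *Cd14*, which hands lipopolysaccharide to *Tlr4*, had 11.4 to 22.1 CPM in LacZ, 5.16 to 6.09 CPM in Nrf1 and 5.31 to 5.80 CPM in Nrf2. It fell with both factors, with log2 differences of -1.39 for Nrf1 (limma adjusted p = 5.26e-06) and -1.37 for Nrf2 (limma adjusted p = 2.02e-05). For *Ly96*, the co-receptor that *Tlr4* needs to bind lipopolysaccharide, the values were -0.32 for Nrf1 (limma adjusted p = 0.0311) and 0.06 for Nrf2 (limma adjusted p = 0.698).

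With Nrf2, 3 of the other 17 receptors were called lower (*Tlr3*, *Tlr7* and *Cd14*) and 1 higher, against 8.83% and 9.06% of all genes. The higher one was *Tlr6*, which moved in opposite directions with the factors. It was at 1.498 to 3.04 CPM in LacZ, 0.195 to 0.820 CPM in Nrf1 and 3.95 to 4.60 CPM in Nrf2. Its log2 difference from LacZ was -2.43 with Nrf1 (limma adjusted p = 0.000171) and 0.87 with Nrf2 (limma adjusted p = 0.0107), and the direct difference was 3.33 (SE 0.379, limma adjusted p = 9.06e-07). *Tlr6* and *Tlr1* have closely similar sequences, and whether reads of either gene were counted for the other was not tested. *Tlr1* itself had a group mean of at most 2.70 and did not pass the test against LacZ with either factor. In the direct comparison 5 of 16 other receptors were called higher in Nrf2, namely *Tlr6*, *Tlr7*, *Tlr8*, *Il18r1* and *Tnfrsf1b*. Called lower were 0, and the shares of all genes were 11.4% and 4.28%. By limma's adjusted p alone 7 were higher and 3 lower, against 25.9% and 25.2% of all genes.

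Of the adaptors and kinases other than *Myd88*, 5 of 22 were called lower with Nrf1 (*Irak2*, *Tradd*, *Map3k7*, *Ikbke* and *Rnf31*) and 2 higher (*Sharpin* and *Tbk1*), where 16.1% and 10.3% of all genes were. With Nrf2, 2 were called lower (*Irak2* and *Ikbke*) and 0 higher, where 8.83% and 9.06% of all genes were. By limma's adjusted p alone, 11 of the 22 were lower and 6 higher with Nrf1, against 29% and 29.7% of all genes. With Nrf2, 13 were lower and 2 higher by that measure, against 22.5% and 25.4%. *Irak2*, a kinase that joins the MyD88 complex, had log2 differences of -1.05 with Nrf1 (limma adjusted p = 0.00412) and -0.88 with Nrf2 (limma adjusted p = 0.00898). *Sharpin*, a part of the linear ubiquitin ligase LUBAC, was at 37.7 to 41.4 CPM in LacZ, 63.4 to 67.1 CPM in Nrf1 and 38.0 to 41.7 CPM in Nrf2. Its rise with Nrf1 was 0.79 (SE 0.0614, limma adjusted p = 7.37e-09), while *Rnf31*, the catalytic part of the same ligase, fell by 0.78 (limma adjusted p = 1.32e-06). The IKK subunit genes did not reach the 1.5-fold cutoff. *Ikbkb*, the kinase that acts on IkB in the classical branch, had -0.40 with Nrf1 and -0.28 with Nrf2, and *Ikbkg*, the scaffold of the complex, had 0.09 and 0.14. *Map3k7*, the kinase above IKK, was called lower with Nrf1 and higher in Nrf2 than in Nrf1, but its libraries overlapped, with 1.497 to 5.06 CPM in Nrf1 and 4.20 to 11.3 CPM in Nrf2.

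Of the genes listed as inhibitors besides *Nfkbia*, 5 of 12 were called lower with Nrf1 (*Irak3*, *Bcl3*, *Nfkbie*, *Zc3h12a* and *Tnip2*). With Nrf2, 3 of them were called lower (*Irak3*, *Bcl3* and *Nfkbie*). Called higher were 0 with each. Of all genes, 16.1% were called lower and 10.3% higher with Nrf1, and 8.83% and 9.06% with Nrf2. By limma's adjusted p alone 6 of the 12 inhibitors were lower and 3 higher with Nrf1, against 29% and 29.7% of all genes. With Nrf2, 7 were lower and 1 higher by that measure, against 22.5% and 25.4%. *Bcl3*, an atypical IkB protein that works in the nucleus with *Nfkb1* or *Nfkb2* products, had the largest fall in each, -1.36 with Nrf1 (limma adjusted p = 0.00161) and -1.28 with Nrf2 (limma adjusted p = 0.00378). Its level was low, from 2.03 to 3.89 CPM in LacZ, 0.703 to 1.10 CPM in Nrf1 and 0.672 to 1.08 CPM in Nrf2. *Irak3*, which blocks the release of IRAK kinases from the receptor, had log2 differences of -1.10 for Nrf1 and -0.91 for Nrf2. *Nfkbib*, which encodes IkB-beta, differed between the factors, at 17.1 to 20.2 CPM in Nrf1 and 11.5 to 12.1 CPM in Nrf2 (log2 difference -0.62, limma adjusted p = 2.89e-05). Among inhibitors that rose by the adjusted p alone was *Tnip1*, which helps A20 restrain the pathway, with 0.49 for Nrf1 and 0.37 for Nrf2.

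The target genes include chemokines, cytokines, adhesion molecules and survival factors. With Nrf1, 19 of 24 besides *Icam1* were called lower and 2 higher, against 16.1% and 10.3% of all genes. Their median log2 difference was -1.33. With Nrf2, 18 of 25 were lower and 1 higher, against 8.83% and 9.06% of all genes, with a median of -0.96. *Cxcl10*, a chemokine that draws T cells and is induced by interferon as well as by NF-kB, had the largest fall with Nrf1, from 116 to 138 CPM in LacZ to 17.3 to 17.9 CPM (-2.77, SE 0.0652, limma adjusted p = 1.88e-15). With Nrf2 it was at 41.6 to 49.3 CPM (-1.41, limma adjusted p = 3.04e-10). *Ptx3*, a secreted pattern recognition protein, had the largest fall with Nrf2, from 29.6 to 45.0 CPM in LacZ to 4.51 to 7.31 CPM (-2.39, SE 0.178, limma adjusted p = 3.61e-08), and was at 10.7 to 12.3 CPM with Nrf1. *Il6*, a cytokine of the acute phase response, had log2 differences of -1.51 for Nrf1 and -1.59 for Nrf2. For *Ccl7*, a monocyte chemokine, they were -2.01 and -2.11, and both genes were called lower with each factor.

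*Sod2*, the mitochondrial superoxide dismutase, was at 109 to 134 CPM in LacZ, 167 to 177 CPM in Nrf1 and 244 to 250 CPM in Nrf2. Its log2 difference was 0.59 with Nrf1 (limma adjusted p = 1.74e-07) and 1.15 with Nrf2 (limma adjusted p = 4.44e-10). The rise with Nrf1 was barely past the 1.5-fold cutoff. *Ccl20*, a chemokine for lymphocytes and dendritic cells, rose with Nrf1 by 0.65 (limma adjusted p = 0.000835), from 10.8 to 17.3 CPM in LacZ to 19.0 to 20.3 CPM. *Vcam1*, an adhesion molecule that like *Icam1* answers to NF-kB, fell with Nrf1 by 0.98 (limma adjusted p = 0.000123). With Nrf2 it was 0.57 higher than LacZ (limma adjusted p = 0.00802), short of 1.5-fold, and Nrf2 exceeded Nrf1 by 1.54 (SE 0.112, limma adjusted p = 2.61e-09). For *Icam1* the direct difference was -0.05. *Vcam1*, *Cxcl1*, *Cxcl10*, *Ptgs2* and *Mmp9* were the 5 of 24 targets called higher in Nrf2 than in Nrf1, and *Ptx3* was the 1 called lower. The shares of all genes were 11.4% and 4.28%.

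**Figure D3:**
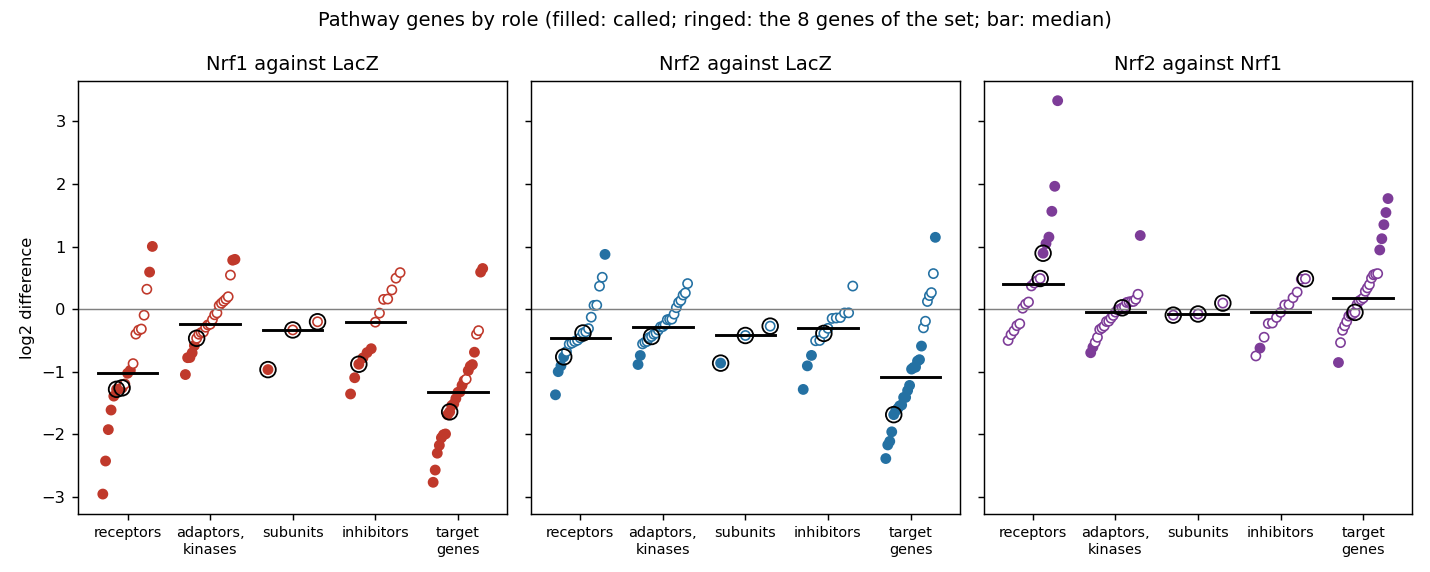
Log2 difference (vertical axis) of each tested pathway gene, by role, in each of the 3 comparisons. Filled points are called, ringed points are the 8 genes of the set, points are spread sideways in order of their difference, and the bar is the median of the role. Receptors and target genes lie lowest against LacZ, with target gene medians including *Icam1* of -1.33 for Nrf1 and -1.09 for Nrf2, and the highest point in the direct comparison is *Tlr6* at 3.33.

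Markers of other cell types moved along with these genes. The 17 leukocyte markers summed to 267 to 393 CPM in LacZ, 142 to 150 CPM in Nrf1 and 142 to 157 CPM in Nrf2. Of the 15 that could be tested, 14 were called lower with each factor, against 16.1% of all genes with Nrf1 and 8.83% with Nrf2. The exception was *Csf1r*, the macrophage growth factor receptor, at 23.6 to 37.8 CPM in LacZ, 35.6 to 42.1 CPM in Nrf1 and 26.5 to 33.4 CPM in Nrf2. Between the factors, 4 of the 15 were called higher in Nrf2 (*Cd68*, *Fcer1g*, *Aif1* and *C1qa*) and 0 lower, against 11.4% and 4.28% of all genes. The median log2 difference of the 15 was 0.34. *Csf1r* (-0.36) and *Lyz2* (-0.31) were lower in Nrf2 than in Nrf1 by limma's adjusted p alone. The T cell marker *Cd3e* had at most 1 read in any library. Endothelial markers, 10 in number, summed to 230 to 245 CPM in LacZ, 146 to 156 CPM in Nrf1 and 141 to 171 CPM in Nrf2. Of these, 6 were called lower with Nrf1 and 5 with Nrf2, against 16.1% and 8.83% of all genes. *Egfl7*, a factor secreted by endothelial cells, was called higher with Nrf2 (log2 difference 0.78, limma adjusted p = 0.000181). *Kdr*, a VEGF receptor, had 0.15 with Nrf1 (limma adjusted p = 0.0912) and -0.40 with Nrf2 (limma adjusted p = 0.000687). For *Tek*, the angiopoietin receptor, the values were -0.46 with Nrf1 (limma adjusted p = 0.000592) and 0.21 with Nrf2 (limma adjusted p = 0.0696). Neither fall reached 1.5-fold. *Tlr2*, *Tlr4*, *Tlr7*, *Cd14*, *Icam1* and *Vcam1* are expressed by leukocytes or endothelium as well, and the part of these markers in the results was not tested.

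Fibroblast markers, 10 in number and led by *Col1a1*, summed to 13159 to 14064 CPM in LacZ, 3241 to 3489 CPM in Nrf1 and 6515 to 7060 CPM in Nrf2. With Nrf1 10 of 10 were called lower and with Nrf2 8 of 10, against 16.1% and 8.83% of all genes. In the direct comparison 7 were called higher in Nrf2 than in Nrf1, against 11.4%. *Tcf21*, a transcription factor of fibroblast progenitors, was called lower in Nrf2 than in Nrf1 (log2 difference -0.92, limma adjusted p = 0.00298). Of the collagens listed, *Col1a1* and *Col3a1* were called lower with both factors and *Col1a2* with Nrf1 only. The study reported a fall of extracellular matrix organization genes, as a group, as specific to Nrf1. The sums, in which *Col1a1* weighs most, stood in the order LacZ, Nrf2, Nrf1, as did *Tlr4*, *Tlr2* and *Nfkbia*, and the part of fibroblast RNA in those was not tested. Cardiomyocyte markers, 10 in number, summed to 14756 to 16634 CPM in LacZ, 15069 to 15230 CPM in Nrf1 and 16347 to 16717 CPM in Nrf2, so that the defining markers of the labelled cell type were abundant in each group. With Nrf1 3 of them were called lower (*Tnni3*, *Myh7* and *Myl2*) and 2 higher (*Actc1* and *Ryr2*), moves that offset each other in the sum. Of all genes, 16.1% were called lower and 10.3% higher with Nrf1. With Nrf2 0 of the 10 cardiomyocyte markers were called in either direction, against 8.83% of all genes lower and 9.06% higher. By limma's adjusted p alone 6 of these markers were higher and 2 lower, against 25.4% and 22.5% of all genes. In bulk RNA, fewer cells of a type and less RNA per cell cannot be told apart.

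**Figure D4:**
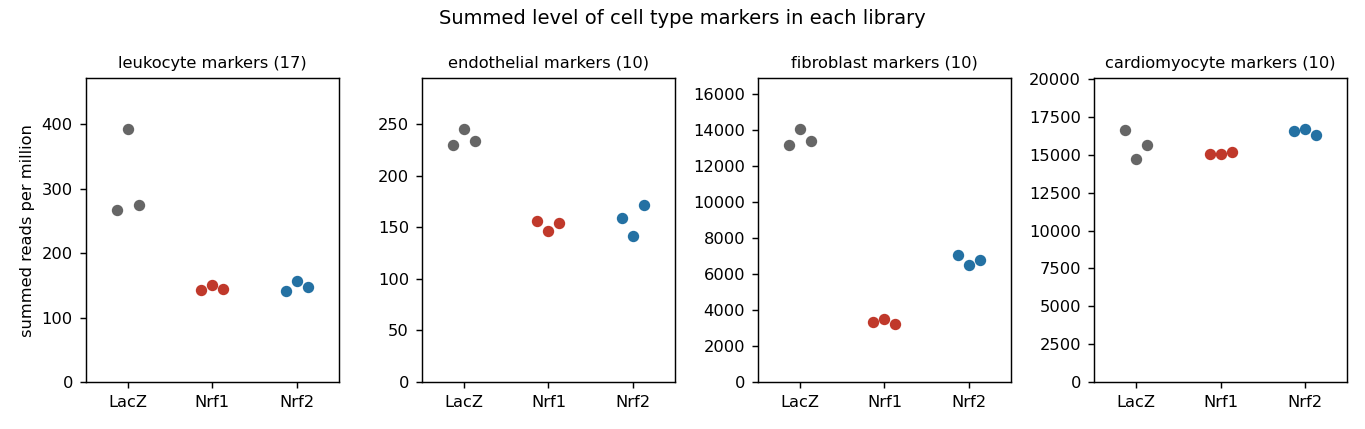
Summed level of the markers of 4 cell types in CPM (vertical axis, from 0, on a scale of its own for each list) in the 3 libraries of each group, shown as points for libraries a, b and c from left to right. Leukocyte and endothelial sums lie at similar levels in Nrf1 and Nrf2 and higher in LacZ, with LacZ library b at 393 CPM for leukocyte markers, while fibroblast sums are lowest in Nrf1.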

How the data were processed

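RNA of NRVMs was sequenced in 9 libraries, 3 per group, as stranded single-end reads of 75 bases. According to the study's methods, the authors used HISAT2 2.0.4 for alignment to rat Rnor 6.0, SAMtools 0.1.18 to drop duplicates, featureCounts 1.6.0 for the counting and edgeR 3.20.5 for their comparisons. GEO's organism label reads mouse, but the cells and the alignment are rat. Each of the 3 deposited tables holds a signal per gene and group, the mean over the libraries of reads that the authors divided by size factors, for 1 pair of groups. The authors' own fold changes and p-values, also in the tables, were not used. There were 0 unused columns of single samples. In the tables with LacZ, 26 names read as dates and 4 rows share a name, and these matched no list.

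Each group mean is the sum over 3 libraries of whole reads times a step, and each group is listed in 2 tables with different size factors. Solving both equations for whole reads, to within 1.5 times the rounding of the last digit, gave exactly 1 answer for 14469 of 14470 genes in LacZ, 14245 of 14245 in Nrf1 and 14617 of 14617 in Nrf2. Deliberately mismatched pairs of means gave an answer for 0 of 718, 0 of 695 and 0 of 701. On simulated means, 14426 of 14470 LacZ genes and 14470 of 14470 genes of each other group were resolved, all of them correctly. Pairs of libraries of a group differed by 1.49 to 5.00 chi-square units per gene, beyond sampling noise.

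Reads divided by the authors' size factors were tested as log2(value + 1) with limma 3.58.1 (R 4.3.3, eBayes with trend, two-sided) within each table, for genes with an average mean of at least 1, and p-values were adjusted by Benjamini-Hochberg over all genes tested. Log2 differences are on that scale, which understates changes of low genes. In data simulated as 2 groups of 3, the calls found 196 of 200 genes that had been changed by a log2 of 1, and took in 6 of 13151 others. Only these 200 genes were changed, low genes were not among them, and the spread was set alike for all genes. These rates therefore need not hold for the real calls. The 8 genes and the gene lists were chosen with earlier results of these data known. Named besides the 8 are, per role list and comparison, the called genes with the largest rise and fall and a mean of at least 10. The choice of the remaining names followed sight of their values: the genes behind counts of 5 or fewer, *Ly96*, *Ikbkb*, *Ikbkg*, *Tnip1*, *Tlr1*, *Il6*, *Ccl7*, *Vcam1*, *Irak3*, *Kdr* and *Tek*. Alternatives covered the cutoff, filter, pseudocount, scaling, voom weights and leaving out each library. *Relb*, *Tnfaip3* and *Nfe2l1* were not analysed here, and no sequences or coordinates were used, since the reference at hand was mouse.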

Additional observations from a re-analysis of the deposited data

How the results depend on the processing

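No difference that passed the test changed sign under any alternative. In the direct comparison, where neither gene passed the test, leaving out each library in turn gave log2 differences from -0.119 to 0.0345 for *Icam1*, with a changed sign without Nrf1 library a, and from -0.0461 to 0.10 for *Myd88*, with a changed sign without Nrf1 library b (-0.0054) or Nrf2 library b. The counts moved mainly with the fold cutoff. With a fold above 2 in place of 1.5, the NF-kB and Toll-like receptor genes called lower were 3 with Nrf1 and 1 with Nrf2, and 0 were called higher in Nrf2 than in Nrf1. Other pathway genes then came to 1 higher with Nrf1, 1 higher and 16 lower with Nrf2, and 0 lower between the factors. All genes came to 546 higher and 1303 lower with Nrf1, 685 and 561 with Nrf2, and 899 and 178 in Nrf2 against Nrf1. With the adjusted p alone, the set had 8 lower with Nrf1, 8 lower with Nrf2 and 3 higher between the factors. Other pathway genes had 13 higher with Nrf1, 9 higher and 45 lower with Nrf2, and 17 higher and 18 lower between them. All genes had 3958 higher and 3861 lower with Nrf1, 3442 and 3048 with Nrf2, and 3495 and 3393 between them. Fewer or more genes pass a stricter or looser cutoff by construction. Re-centring on the median gene and scaling by library totals each left 3 other pathway genes higher with Nrf1 in place of 6. Re-centring took 0.054 off the log2 ratios with Nrf1. The smallest log2 differences of the 6 were 0.59 for *Sod2* and *Tnfrsf1a* and 0.65 for *Ccl20*, and whether these were the 3 that dropped was not tested. Leaving out each library in turn gave 1 to 3 other pathway genes higher with Nrf2, with 1 when LacZ library a was left out, and 1 to 2 genes of the set higher in Nrf2 than in Nrf1, the second being *Tlr2* without Nrf2 library b (log2 difference 0.59). Of 312 tests of single genes of the set under alternatives, 305 kept their direction and their side of the adjusted p threshold, and 3 changed sign as given. The 4 that no longer had an adjusted p under 0.05 are given with *Tlr4*, *Tlr2* and *Rela* above. No paired analysis was possible because the recovered libraries carry no replicate numbers. Depth limits *Tlr2* most, with 43 reads in its lowest library.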
